A study of Homo sapiens with 4 samples.

Results

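The SOX, PAX, TBX, LHX, IRX and NKX genes and the sine oculis homeobox genes, such as SIX2 and SIX5, encode DNA-binding transcription factors that set cell identity and body pattern in the embryo. All 70 autosomal protein-coding genes with such symbols and a number (16 SOX, 8 PAX, 12 TBX, 8 LHX, 6 IRX, 6 sine oculis and 14 NKX) were taken by symbol, out of 19126 autosomal protein-coding genes. SOX9, SOX10 and PAX3 were left out by the same rule, as were 2 matching genes on chromosome X. CTCF binding at these genes was read from the peak list of 1 chromatin immunoprecipitation library (ChIP-seq), made with a rabbit antibody against CTCF from asynchronous MDA-MB-435 cells, a human melanoma line grown without any further treatment named in the labels. The series holds 4 samples in 2 groups of 2 replicates. The second asynchronous sample and the 2 mitotic samples (nocodazole-arrested cells, antibody against pT431 CTCF) were not analysed here, so no value below has a replicate check and no difference between groups was tested.

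CTCF is a zinc finger protein that stops loop extrusion by cohesin and so marks loop anchors and domain boundaries. Genes of early development often lie in gene-poor regions with remote enhancers, where such boundaries help to decide which gene an enhancer reaches. SOX proteins bind through an HMG box, PAX proteins through a paired domain and TBX proteins through a T-box. LHX, IRX and NKX proteins are homeodomain factors of the LIM, Iroquois and NK classes, and SIX2, SIX5 and their relatives form the sine oculis class. A list of peaks shows where CTCF was found in these melanoma cells, and says nothing of whether a gene was expressed.

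The library held 19210460 tags, and 42462 peaks of 349 bp were reported for it, with a median of 20.0 normalised tags (tags per 10000000 sequenced). A distance below runs from the centre of a peak to an annotated gene end, and either end counts unless the transcription start is named. Intervals in parentheses after normalised tags are exact Poisson 95% intervals, which cover counting error only. No control library is named for the peak calls, so extra DNA copies in this cell line and CTCF binding cannot be told apart from tag counts alone.

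Few of these genes had a CTCF peak directly at an end, and more of them had the nearest peak a few kilobases away. A peak lay within 1 kb of an end in 12 of the 70 members (17.1%), where 28.9% of all autosomal protein-coding genes had one. A peak within 5 kb but not 1 kb was found in 25 members (35.7%) and in 25.2% of all genes. Both together, within 5 kb it was 37 of 70 (52.9%) against 54.0%. The gap was widest close to the gene: 1 member (SOX13) had a peak within 250 bp and 4 within 500 bp (SOX13, TBX3, IRX6 and TBX2), where the shares of all genes were 13.8% and 20.9%. Within 2 kb, 23 members (32.9%) had a peak against 37.9%. The median distance to the nearest peak was 4.82 kb for members and 4.07 kb for all genes. The last members inside the 1 kb window were IRX3 at 870 bp, TBX18 at 947 bp and TBX21 at 1000 bp, and SIX5 at 1088 bp and IRX5 at 1275 bp lay just outside. At 5 kb, NKX6-1 (4734 bp), IRX2 (4899 bp) and SOX18 (4900 bp) were the last inside, and NKX2-1 (5457 bp), PAX2 (6089 bp) and TBX19 (7687 bp) the first outside.

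**Figure D1:**
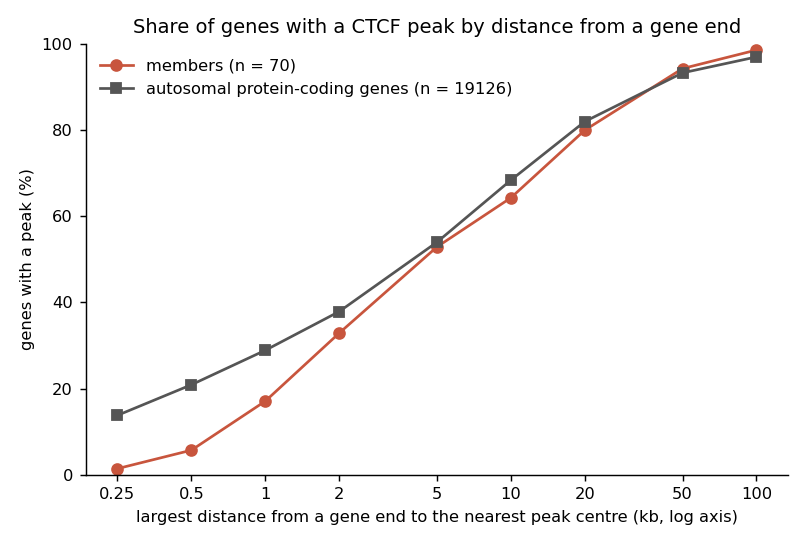
Share of genes (percent, vertical axis) whose nearest peak centre lies within a given distance of either gene end (kb, logarithmic horizontal axis), for the 70 members (circles) and 19126 autosomal protein-coding genes (squares). The members lie below the genes at 1 kb (17.1% against 28.9%) and close to them at 5 kb (52.9% against 54.0%).

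Gene length and gene density were then compared, since the members were short (median 7.84 kb, all genes 24.5 kb) and lay among few genes (a median of 1 other protein-coding gene within 100 kb, against 4). Among genes within the interquartile range of the members' length, 8 of 34 members (23.5%) had a peak within 1 kb where 28.7% of genes of that length did. Within 5 kb the order turned over at that length, with 23 of 34 members (67.6%) against 57.1%. By gene density, 5 of 36 members with 0 to 1 neighbours had a peak within 1 kb (13.9%, all such genes 25.9%), 2 of 24 with 2 to 4 neighbours (8.33%, all 29.2%) and 5 of 10 with 5 or more (50.0%, all 29.7%). Those 5 were TBX6, TBX10, TBX21, SOX12 and SOX13. Within 5 kb the counts were 19 of 36 (52.8%, all 47.3%), 9 of 24 (37.5%, all 53.5%) and 9 of 10 (90.0%, all 57.1%). SOX8 was the member in a gene-dense region without a peak within 5 kb. The part of neighbouring genes in these counts was not tested.

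The transcription start end could be told for the 46 members whose RefSeq promoter (build GRCh38.p14) was at hand. Within 1 kb of the start, SOX13, TBX6 and TBX18 had a peak (3 of 46, 6.52%), where 24.8% of all genes with a known strand did. Within 5 kb of the start it was 17 of 46 (37.0%) against 41.5%. Of the 7 peaks within 1 kb of these members, 3 lay by the start and 4 by the other end. A peak centre fell into 2 of their 73 promoter windows (2.74%), each running from 250 bases before a start to 50 bases after it, whereas 8.56% of 21156 windows of all genes held one. These 2 windows belong to LHX9 (chr1:197915824-197916123, plus strand) and SOX13 (chr1:204072865-204073164, plus strand), both on hg38, and are printed 5′ to 3′ with the 21 bases around the peak centre in capitals. The LHX9 window belongs to an internal start, so its peak is not counted within 1 kb of the annotated start end. The centre lay 139 bases before that internal LHX9 start, with 20.0 normalised tags, and 27 bases after the SOX13 start, with 17.4.
LHX9: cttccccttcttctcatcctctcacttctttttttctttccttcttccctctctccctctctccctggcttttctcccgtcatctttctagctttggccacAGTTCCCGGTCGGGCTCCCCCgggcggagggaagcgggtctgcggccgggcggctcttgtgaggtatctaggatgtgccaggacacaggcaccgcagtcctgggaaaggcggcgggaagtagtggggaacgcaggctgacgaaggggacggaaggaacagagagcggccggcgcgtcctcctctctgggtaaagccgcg
SOX13: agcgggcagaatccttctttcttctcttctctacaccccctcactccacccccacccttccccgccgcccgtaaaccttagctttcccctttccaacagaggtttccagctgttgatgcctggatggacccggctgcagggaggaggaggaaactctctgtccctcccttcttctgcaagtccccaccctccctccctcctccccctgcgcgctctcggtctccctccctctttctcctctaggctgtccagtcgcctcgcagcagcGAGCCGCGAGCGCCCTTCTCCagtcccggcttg

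CTCF recognises a long GC-rich motif, and 3 pieces of it were searched on both strands of the promoter windows: AGGGGGC, its variant AGGTGGC, and a longer core that puts CC and any 3 bases before AGGGGGC, so that each longer match also counts as an AGGGGGC match. None of the 3 was in the LHX9 or SOX13 windows above. The longer core was in 2.15% of all 21156 windows, in 12.1% of the 1811 with a peak centre and in 1.22% of the others. Among members it was in 3 of 73 windows (4.11%), those of NKX3-2, SOX1 and TBX6, and no peak was centred in any of them. AGGGGGC was in 16 of 73 member windows (21.9%, all windows 17.4%) and AGGTGGC in 7 (9.59%, all 7.14%). The 3 windows with the longer core are shown because letters and peaks parted there, with the match in capitals (on the opposite strand at SOX1 and TBX6): NKX3-2 (chr4:13544459-13544758, minus strand), SOX1 (chr13:112066899-112067198, plus strand) and TBX6 (chr16:30091875-30092174, minus strand). The nearest peak centre was 4.39 kb from the match at NKX3-2, 4.04 kb at SOX1 and 617 bp at TBX6. The NKX3-2 window belongs to an internal start, so the same peak lies nearer to the annotated start end than to the match. The last sequence is the promoter window of the RNA gene LOC112268271 (chr20:21506356-21506655, minus strand), which lay under the strong peak beside NKX2-2. It holds AGGGGGC on its opposite strand, in capitals, 57 bp from the peak centre. These 4 windows were chosen after their values were seen.
NKX3-2: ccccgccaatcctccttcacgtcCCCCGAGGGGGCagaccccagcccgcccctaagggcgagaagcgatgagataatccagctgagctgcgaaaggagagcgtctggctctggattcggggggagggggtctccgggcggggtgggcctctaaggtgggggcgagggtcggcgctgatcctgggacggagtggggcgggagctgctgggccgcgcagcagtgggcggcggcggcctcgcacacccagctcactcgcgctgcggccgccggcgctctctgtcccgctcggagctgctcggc
SOX1: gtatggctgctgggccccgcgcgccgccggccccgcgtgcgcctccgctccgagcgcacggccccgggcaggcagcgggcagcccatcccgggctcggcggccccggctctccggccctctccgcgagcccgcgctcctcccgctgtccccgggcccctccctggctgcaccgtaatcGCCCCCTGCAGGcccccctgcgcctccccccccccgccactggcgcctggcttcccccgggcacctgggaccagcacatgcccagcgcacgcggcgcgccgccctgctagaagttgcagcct
TBX6: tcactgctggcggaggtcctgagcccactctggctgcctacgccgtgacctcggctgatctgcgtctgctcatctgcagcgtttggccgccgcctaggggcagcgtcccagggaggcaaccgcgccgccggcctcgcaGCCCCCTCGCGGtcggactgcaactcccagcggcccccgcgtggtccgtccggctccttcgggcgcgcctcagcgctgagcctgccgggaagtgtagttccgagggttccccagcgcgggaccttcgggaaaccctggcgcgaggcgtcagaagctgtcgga
LOC112268271: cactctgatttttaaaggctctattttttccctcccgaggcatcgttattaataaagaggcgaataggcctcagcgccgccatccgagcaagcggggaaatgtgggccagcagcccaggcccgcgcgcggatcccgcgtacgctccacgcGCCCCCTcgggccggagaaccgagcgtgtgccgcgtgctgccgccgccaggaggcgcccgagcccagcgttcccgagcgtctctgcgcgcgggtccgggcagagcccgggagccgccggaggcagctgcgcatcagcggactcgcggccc

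By family, the share of genes with a near peak ran from none to 6 of 12 within 1 kb. TBX genes had a peak within 1 kb in 6 of 12, IRX genes in 2 of 6, SOX genes in 2 of 16, LHX genes in 1 of 8, NKX genes in 1 of 14, and PAX genes (8) and sine oculis genes (6) in 0, where 28.9% of all genes had one. Within 5 kb the counts were 8 of 12 TBX, 5 of 6 IRX, 11 of 16 SOX, 4 of 8 LHX, 3 of 6 sine oculis, 4 of 14 NKX and 2 of 8 PAX, where 54.0% of all genes had one. The median distance to the nearest peak was 1.43 kb for IRX, 1.53 kb for TBX, 3.02 kb for SOX, 6.15 kb for LHX, 6.16 kb for sine oculis genes, 10.3 kb for NKX and 11.2 kb for PAX. No test between families was made, since the members of 1 library are not replicates. Single members ranged widely within every family, for example from 27 bp to 215 kb among SOX genes.

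**Figure D2:**
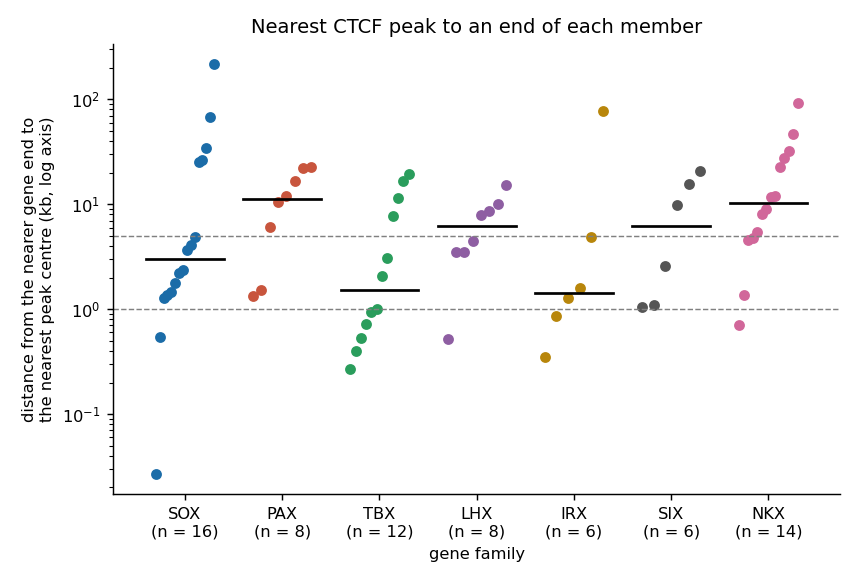
Distance from the nearer gene end to the nearest peak centre (kb, logarithmic vertical axis) for each of the 70 members, by family. Each point is 1 gene, black bars are family medians (1.43 kb for IRX to 11.2 kb for PAX) and dashed lines mark 1 and 5 kb.

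Among SOX genes, SOX13, SOX4, SOX12 and SOX2 lay beside clear CTCF peaks, and SOX11 lay in a wide stretch without any. SOX13, a SoxD factor of lymphocyte and neural development, showed 85.9 normalised tags (73.3 to 100) in a peak just 84 bp beyond its transcript end (chromosome 1, 204127653 to 204128001), which stood 17.1-fold over the surrounding 10 kb. A second peak 1465 bp beyond that end held 59.1 (49.0 to 71.3), and the peak at the start held 17.4 (11.8 to 24.1), so the end carried more tags than the start by more than the counting intervals. SOX12, a SoxC factor expressed in many embryonic tissues, had 49.7 normalised tags (40.0 to 60.5) 546 bp past its transcript end (chromosome 20, 330596 to 330944, 19.1-fold) and 14.6 (9.69 to 21.1) at 1212 bp before its start. These were the 2 SOX genes with a peak within 1 kb.

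Of the 9 SOX genes with a peak between 1 and 5 kb, SOX4 had the strongest. SOX4, a SoxC factor active in many progenitors and tumours, had 62.7 normalised tags (51.8 to 74.7) 4325 bp before its start and a weak peak of 7.55 inside the gene, 1462 bp from its transcript end. SOX2, which keeps stem cells and neural progenitors undifferentiated, had 47.6 (38.1 to 58.2) 2198 bp before its start, inside the long RNA gene SOX2-OT, and its interval overlapped that of SOX4. Around SOX30, a factor of male germ cells, the peak lay inside the gene, 2365 bp from its start, with 32.8 (25.2 to 42.0). SOX15 had 31.5 (24.3 to 40.8) at 1276 bp, inside the neighbouring MPDU1. The endothelial SoxF genes had weaker peaks: 20.3 (14.4 to 27.8) for SOX18 at 4900 bp, 9.37 (5.55 to 14.8) for SOX17 at 1365 bp and 7.55 (4.37 to 12.9) for SOX7 at 1774 bp. SOX1 and SOX21, both neural, had 10.7 at 4104 bp and 8.33 at 3672 bp. SOX5, SOX6, SOX8, SOX11 and SOX14 had no peak within 5 kb.

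No PAX gene had a peak within 1 kb, and the 2 with one within 5 kb had weak peaks. PAX1, needed for the vertebral column, was flanked by 16.1 normalised tags (11.0 to 22.9) at 1345 bp and 14.3 (9.26 to 20.4) at 2511 bp on its other side. PAX9, which acts in teeth and thymus, had 12.5 (8.0 to 18.6) 1511 bp before its start. For the kidney gene PAX2 the nearest peak was 6089 bp away, for the islet gene PAX4 10.5 kb outside it, and for the eye gene PAX6 16.5 kb outside it, with 8.07, 10.9 and 7.81 normalised tags. PAX8, a thyroid and kidney factor, had 64.8 (53.7 to 77.0) 11.9 kb outside its lower-coordinate end. PAX5 and PAX7, which act in B cells and muscle stem cells, had their nearest outside peaks at 34.8 and 22.2 kb.

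A peak lay inside 5 of the 8 PAX genes, whose median length was 45.9 kb. They held 13 peaks in all, 7 of them in PAX5. Over all 70 members the share with a peak inside was 38.6% (27 genes), over all autosomal protein-coding genes 49.7%, and over genes within the members' interquartile range of length (4296 to 26762 bp) 34.7%. Neither the 70 members nor the PAX genes were limited to that range here, so the last share is not matched to them by length. PAX5, at 201 kb the longest PAX gene, held 7 peaks, in order along the chromosome of 36.4, 29.7, 43.2, 9.89, 10.7, 48.7 and 46.6 normalised tags. Of these 7, 5 exceeded the list's median of 20.0, and the strongest lay 42.5 kb inside the higher-coordinate end (chromosome 9, 36991553 to 36991901). The interval of that peak (39.5 to 59.9) took in 46.6 and 43.2, so which was strongest is within counting error. PAX8 held 53.4 (43.8 to 65.0) near its middle and 9.89, PAX2 held 37.5 (29.3 to 47.2) and 8.07, PAX7 held 14.6 and PAX9 held 11.7. PAX1, PAX4 and PAX6 held none.

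TBX genes had the most peaks close to their ends, and those peaks ranged from weak to strong. TBX6, which patterns the presomitic mesoderm, had 60.9 normalised tags (50.4 to 73.0) 724 bp before its start (chromosome 16, 30092474 to 30092822, 13.0-fold), inside the neighbouring YPEL3 and within 1 kb of an end of that gene, and a weak peak of 8.59 (5.16 to 14.2) at 3109 bp past its transcript end. TBX10 had 52.3 (42.4 to 63.3) 531 bp past its transcript end (chromosome 11, 67630598 to 67630946, 8.95-fold) and 78.3 (66.1 to 91.6) at 1889 bp, both also within 1 kb of an end of NUDT8, and 48.2 (39.1 to 59.3) inside, 1565 bp from its start. TBX3, a transcriptional repressor that acts in limb and mammary development, had peaks on both sides. The nearer held 38.8 (30.7 to 48.9) at 269 bp (chromosome 12, 114684270 to 114684618, 17.6-fold), inside TBX3-AS1. The other held 43.5 (34.9 to 54.1) at 2001 bp on the other side of TBX3. TBX2, its close paralog, had 12.0 (7.59 to 18.0) at 400 bp (chromosome 17, 61399269 to 61399617, 7.48-fold) and 101.5 (87.8 to 117) at 3088 bp from the other end, the most of any peak within 5 kb of a member. The intervals of the TBX3 pair overlapped and those of the TBX2 pair did not. TBX18, a factor of the epicardium and ureter, had 11.5 (7.18 to 17.3) at 947 bp and 11.7 (7.18 to 17.3) at 3693 bp, and TBX21, the T-bet factor of helper T cells, had 9.37 (5.55 to 14.8) at 1000 bp and 23.9 (17.5 to 31.9) at 3321 bp.

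Of the remaining TBX genes, TBX5, the heart and forelimb gene, had 11.2 normalised tags (7.18 to 17.3) 2062 bp inside its transcript end, and TBX1, a gene of the pharyngeal arches, had 8.85 (5.16 to 14.2) 3042 bp inside its transcript end. No peak within 5 kb was found for TBX4 (hindlimb and lung), TBX15 (skeleton and skin), TBX19 (pituitary corticotrophs) or TBX20 (heart). Their nearest outside peaks lay at 26.2, 19.3, 7.69 and 16.6 kb, and TBX4 held a peak of 8.85 inside. Counting peaks at or above the median score alone, 3 of 12 TBX genes had a peak within 1 kb (25.0% against 15.6% of all genes). Without peaks within 1 kb of another protein-coding gene end it was 4 of 12 (33.3% against 21.9%). Within 2 kb it was 6 of 12 (50.0% against 37.9%). The TBX share was below that of all genes at 500 bp, with 2 of 12 (16.7% against 20.9%). By the start alone it was 2 of the 9 TBX genes with a known strand (22.2% against 24.8%). TBX2, TBX3 and TBX15 had no known strand and were left out. The peaks at 400 bp from TBX2 and 269 bp from TBX3 thus could not enter that count, and whether the TBX share by the start is below that of all genes stays undecided.

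LHX5, a forebrain factor, was the 1 LHX gene with a peak within 1 kb, with 61.2 normalised tags (50.8 to 73.6) 525 bp inside its lower-coordinate end (chromosome 12, 113462384 to 113462732, 26.9-fold). LHX8, needed for cholinergic neurons and oocytes, had 38.0 (29.8 to 47.8) 4425 bp past its transcript end, inside SLC44A5. LHX9, a gene of gonad development, had the promoter peak of 20.0 (14.0 to 27.2) shown above, 3471 bp inside its annotated start end, and 29.2 (22.0 to 37.9) farther inside. LHX1, a head and kidney factor, had 13.8 (9.26 to 20.4) at 3488 bp, within 1 kb of an end of AATF. The pituitary gene LHX4 had no peak within 5 kb but 2 inside, of 66.6 (55.6 to 79.2) and 16.4. LHX2, LHX3 and LHX6 had none inside or within 5 kb, and their nearest peaks lay at 7.88, 15.2 and 10.1 kb.

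The IRX genes lie in clusters of 3 on chromosomes 5 and 16, and their peaks were near but weak. IRX6 had 17.4 normalised tags (11.8 to 24.1) at 351 bp (chromosome 16, 55323678 to 55324026, 26.1-fold) and IRX3 15.6 (10.5 to 22.3) at 870 bp (chromosome 16, 54282260 to 54282608, 7.12-fold), with 14.8 (9.69 to 21.1) inside. IRX5 had 12.8 (8.42 to 19.2) at 1275 bp, IRX2 10.2 (6.36 to 16.1) at 4899 bp inside the gene and IRX1 9.63 (5.55 to 14.8) at 1678 bp with 7.81 (4.37 to 12.9) inside. All of these values lay below the median peak of the list and their intervals overlapped. IRX4, which marks heart ventricles, had no peak within 5 kb, and its nearest stood 78.0 kb away.

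No sine oculis gene had a peak within 1 kb. SIX5 had the strongest peak of the family, 89.3 normalised tags (76.7 to 104) 1088 bp from its higher-coordinate end (chromosome 19, 45770166 to 45770514, 24.5-fold), inside DMPK, the myotonic dystrophy gene, and its antisense gene DM1-AS. SIX4, which acts in muscle precursors, had a peak inside of 24.5 (18.0 to 32.5), 2572 bp from its start. SIX3 (forebrain), SIX2 (kidney progenitors) and SIX6 (eye and pituitary) had none within 5 kb, and their nearest outside peaks lay at 9746 bp, 15.5 kb and 20.8 kb, with 73.7, 21.1 and 15.1 normalised tags.

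Within 5 kb, NKX genes had a peak least often after PAX genes. NKX2-2, which specifies islet and spinal cord cells, had 82.0 (69.9 to 96.1) 4572 bp past its transcript end, under the LOC112268271 promoter printed above. Another peak of 98.4 (84.9 to 113) lay 5.63 kb from the same end, and the intervals of both peaks overlapped. NKX3-2, a skeletal factor, had 47.4 (38.1 to 58.2) at 1373 bp before its annotated start end, which is not the internal start of the window printed above. NKX6-1, a factor of insulin cells, had 23.2 (17.1 to 31.3) at 4734 bp before its start. No peak within 5 kb was found for 10 NKX genes: NKX1-1, NKX1-2, NKX2-1, NKX2-3, NKX2-4, NKX2-5, NKX2-6, NKX2-8, NKX6-2 and NKX6-3. Among them the nearest outside peaks ran from 5457 bp at NKX2-1, the lung and thyroid gene, to 92.0 kb at NKX2-4, with the heart gene NKX2-5 at 27.7 kb.

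**Figure D3:**
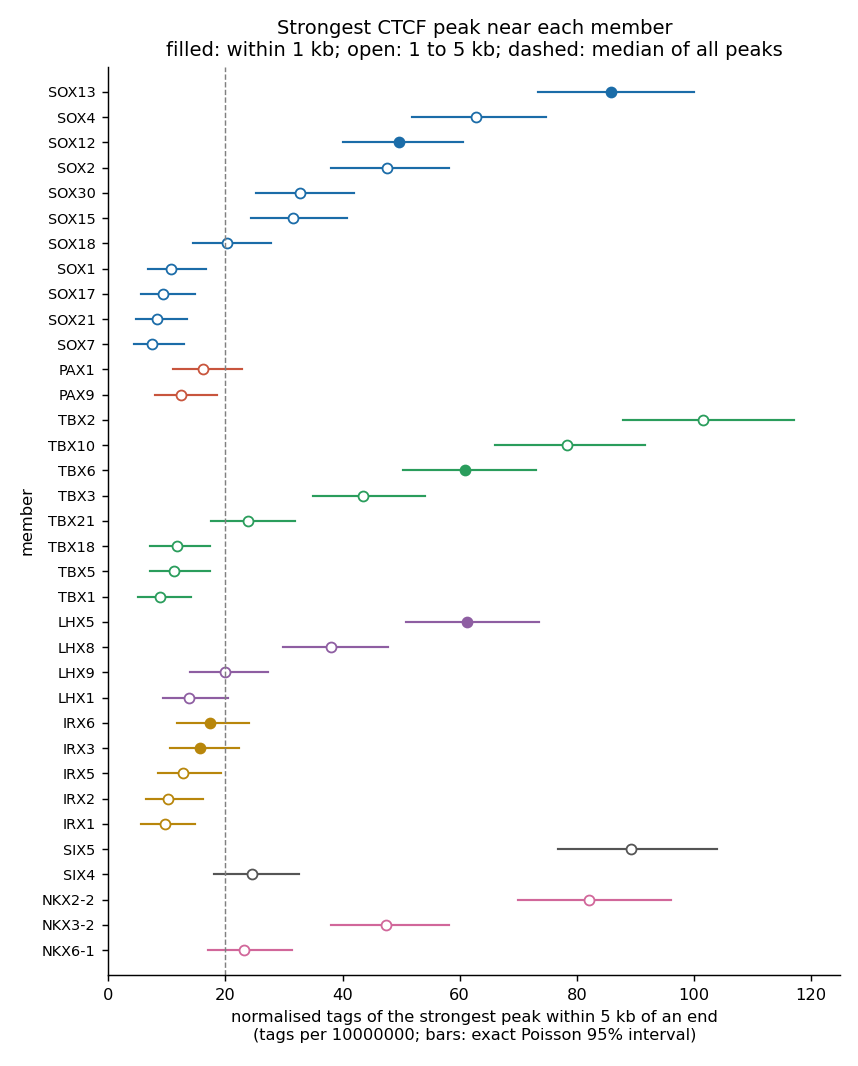
Normalised tags (tags per 10000000) of the strongest peak within 5 kb of either end of 35 of the 37 members that had one, by family, with exact Poisson 95% intervals as bars. Filled points lie within 1 kb and open points between 1 and 5 kb, the dashed line is the median of all peaks (20.0), and the values run from 7.55 at SOX7 to 101.5 at TBX2.

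Within 5 kb of an end, peaks inside the members had a lower median of tags than those outside. The members held 43 peaks inside in all, and those farther from an end are not part of this comparison. Of the 51 peaks counted within 5 kb of a member's end, 19 lay inside the gene and 32 outside. Inside, 5 of 19 exceeded the list's median of 20.0 normalised tags (26.3%), with a median of 11.2 and a range of 7.55 to 61.2. Outside, 18 of 32 did (56.2%), with a median of 27.4 and a range of 8.33 to 101.5. Over all autosomal protein-coding genes the shares above the median were 50.0% inside and 64.6% outside, with medians of 20.3 and 29.4. The focus ratio states what share of tags lies where a point source would put them, to either side of the centre by strand, and its median was 0.809 inside and 0.845 outside for members and 0.824 and 0.851 for all genes. Weak peaks rest on few tags, for example about 15 at SOX7 and at the peaks inside SOX4 and IRX1, which is the caller's minimum, so whether such peaks would be found again was not tested. Fold over the local region ran from 4.40 to 28.4 over the 51 peaks. The strong peaks of SOX13, TBX2, TBX6, TBX10 and NKX2-2 lay on a local background of 4.69 to 6.40 normalised tags against a median of 1.49 on the autosomes. Neighbouring peaks add to that local value, and the part of the background in their tag counts was not tested.

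Peaks inside the other members were few. After PAX5, the members with the most peaks inside were the 2 longest, the SoxD genes SOX6 and SOX5, which act in cartilage and neurons. SOX6 held 4 of 9.37, 47.6, 57.8 and 30.7 normalised tags over 772 kb, or 0.518 per 100 kb, and SOX5 held 3 of 17.4, 13.3 and 14.6 over 1033 kb, or 0.290 per 100 kb. PAX5 had 3.48 per 100 kb. Both SOX genes thus had fewer peaks for their length than PAX5, and those of SOX5 were all below the list's median. LHX4, LHX9, PAX2, PAX8 and TBX21 held 2 peaks each and the remaining 19 genes with any held 1.

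The nearest peak outside a gene lay a median of 10.3 kb from a member's end, against 9.25 kb for all autosomal protein-coding genes. By family the medians were 1.48 kb for IRX, 9.86 kb for LHX, 10.8 kb for NKX, 11.1 kb for SOX, 11.2 kb for PAX, 11.7 kb for TBX and 16.7 kb for sine oculis genes. The 10 nearest were SOX13 (84 bp), TBX3 (269 bp), IRX6 (351 bp), TBX2 (400 bp), TBX10 (531 bp), SOX12 (546 bp), TBX6 (724 bp), IRX3 (870 bp), SIX5 (1088 bp) and IRX5 (1275 bp). The 10 farthest were SOX11 (215 kb), NKX2-4 (92.0 kb), IRX4 (78.0 kb), SOX8 (68.3 kb), TBX5 (67.9 kb), SIX4 (61.1 kb), SOX7 (58.4 kb), SOX30 (47.2 kb), NKX1-1 (46.6 kb) and PAX5 (34.8 kb). Over 50 kb were 7 members (10.0%) and 10.7% of all genes. Within 100 kb outside the gene, members had a median of 5 peaks, as did all genes, with 0 at SOX11 and 13 at both LHX3 and TBX10.

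Several members stood at the edge of a long stretch without a peak, with none for over 150 kb outside the gene on at least 1 side. Those named here are examples and not the full list. How often this holds among all genes was not counted, so such stretches cannot be called particular to the members. SOX11, a SoxC factor of the nervous system, had none for 326 kb on its lower-coordinate side and 215 kb on the other, and the nearer of these 2 peaks held 7.81 normalised tags. TBX15 had none for 578 kb on its lower-coordinate side and a peak at 19.3 kb on the other. SOX4 had a peak at 4325 bp on 1 side and none for 337 kb outside its other end. These distances were 870 bp and 347 kb for IRX3, 2198 bp and 180 kb for SOX2, and 84 bp and 202 kb for SOX13. SOX4, IRX3 and SOX13 each also held a peak inside the gene. For LHX2 the distances were 7.88 and 287 kb, for PAX5 34.8 and 228 kb, and for SIX4 61.1 and 301 kb. From one flanking peak to the other, gene included, the median was 92.7 kb for members and 99.4 kb for all genes, and it exceeded 200 kb in 16 members (22.9%) and 23.5% of all genes. Such wide spacing of the flanking peaks was thus about as common at the members as at all genes. It includes gene length and ignores peaks inside the gene, so it does not measure stretches without a peak. PAX5, for example, had 464 kb between its flanking peaks and held 7 peaks inside.

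**Figure D4:**
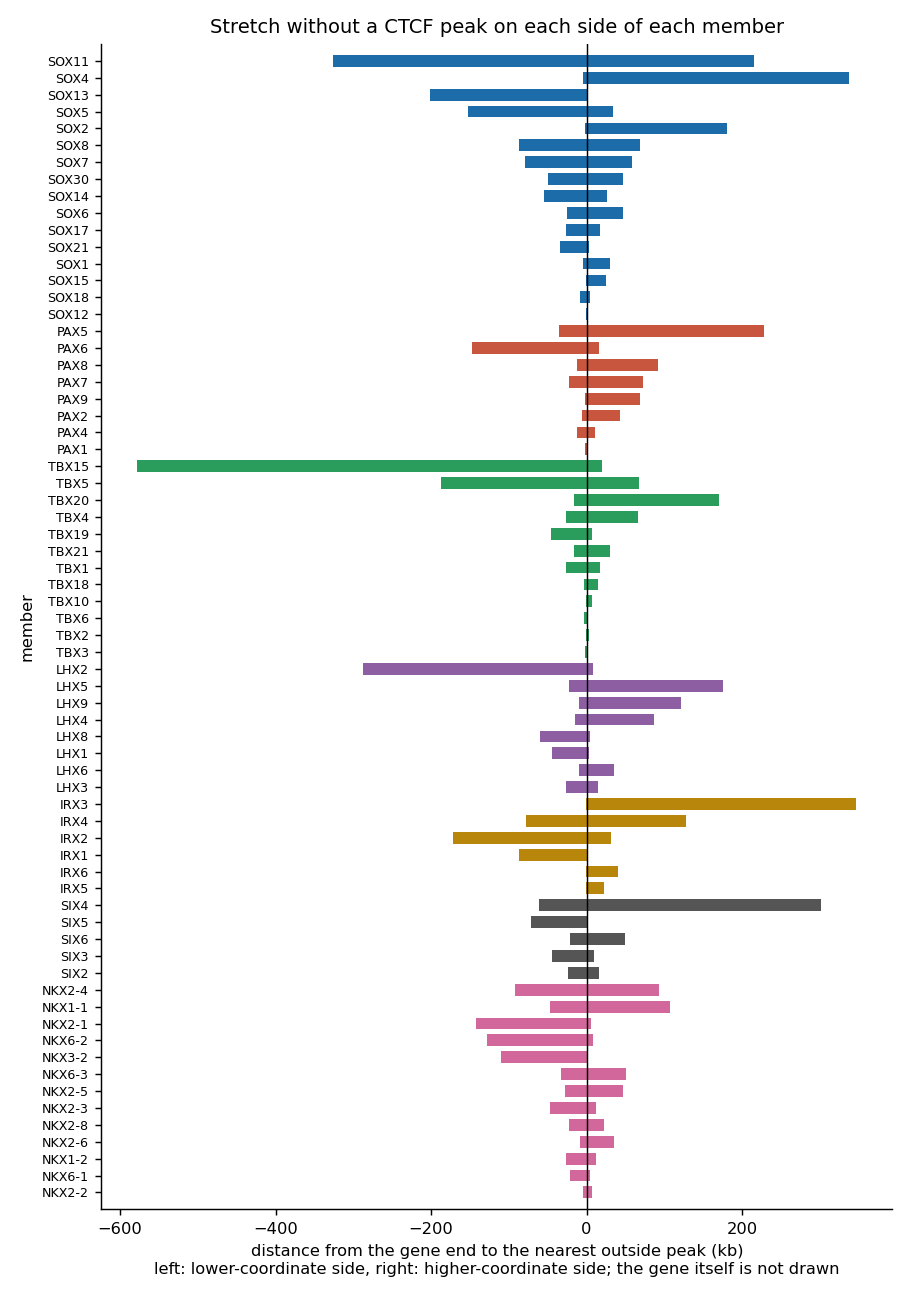
Distance from each end of 68 of the 70 members to the nearest outside peak (kb), to the left for the lower-coordinate side and to the right for the higher-coordinate side, grouped by family in color. SOX11 has long bars on both sides (326 and 215 kb), whereas TBX15, LHX2, IRX3 and SOX4 have a long bar on a single side.

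Some members lie next to each other, with facing ends within 1 Mb, and between the neighbours described here at least 1 peak was found in each case. SIX3 and SIX2, 59.1 kb apart, had 4, the strongest of 73.7 normalised tags (62.3 to 87.1) 9.75 kb from SIX3 (chromosome 2, 44955643 to 44955991, 34.5-fold). These 4 peaks came to 6.77 per 100 kb.

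TBX2 and TBX4, 43.0 kb apart, had 3 peaks between them, the strongest being the one of 101.5 normalised tags 3.09 kb from TBX2. TBX5 and TBX3, 262 kb apart, had 6, and the strongest was the peak of 43.5 beside TBX3, 260 kb from TBX5. In both pairs the strongest peak between the genes was thus within 5 kb of TBX2 or TBX3 and farther from TBX4 or TBX5. Between TBX5 and TBX3, however, other peaks of 38.3 and 37.2 fell within the interval of the strongest (34.9 to 54.1). Which of them was strongest there is thus within counting error. LHX5 and TBX5, 882 kb apart, had 12, led by a peak of 58.0 (47.5 to 69.6).

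Between IRX neighbours there were 0.355 to 1.54 peaks per 100 kb. IRX4 and IRX2 were 848 kb apart with 7 peaks (0.825 per 100 kb), of which the strongest held 64.5 normalised tags (53.7 to 77.0) 152 kb from IRX4. Between IRX2 and IRX1 (844 kb) there were 3, the strongest of 17.2 (11.8 to 24.1). IRX3 and IRX5 (644 kb) also had 3, the strongest of 13.5 (8.84 to 19.8), and IRX5 and IRX6 (390 kb) had 6, the strongest of 30.2 (22.9 to 39.0). The interval of the IRX4 to IRX2 peak lay above those of the other 3 strongest peaks. In those other 3 pairs a further peak, of 12.0, 12.8 and 24.7, fell within the interval of the strongest.

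The NKX and PAX genes share 2 loci. On chromosome 14, NKX2-1 and NKX2-8 (59.8 kb) had 3 peaks between them, the strongest of 28.1 (21.1 to 36.7) normalised tags, and NKX2-8 and PAX9 (75.0 kb) also 3, the strongest of 50.2 (40.5 to 61.0) 9.45 kb from PAX9. On chromosome 20, NKX2-4 and NKX2-2 (113 kb) had 3, the strongest being the peak of 98.4 at 5.63 kb from NKX2-2. NKX2-2 and PAX1 (183 kb) had 5, the strongest of 32.3 (24.7 to 41.4) almost midway. Another peak of 25.0 between NKX2-1 and NKX2-8, and one of 27.1 between NKX2-2 and PAX1, fell within the interval of the strongest there. The interval of the 98.4 peak overlapped that of the 82.0 peak beside it.

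**Figure D5:**
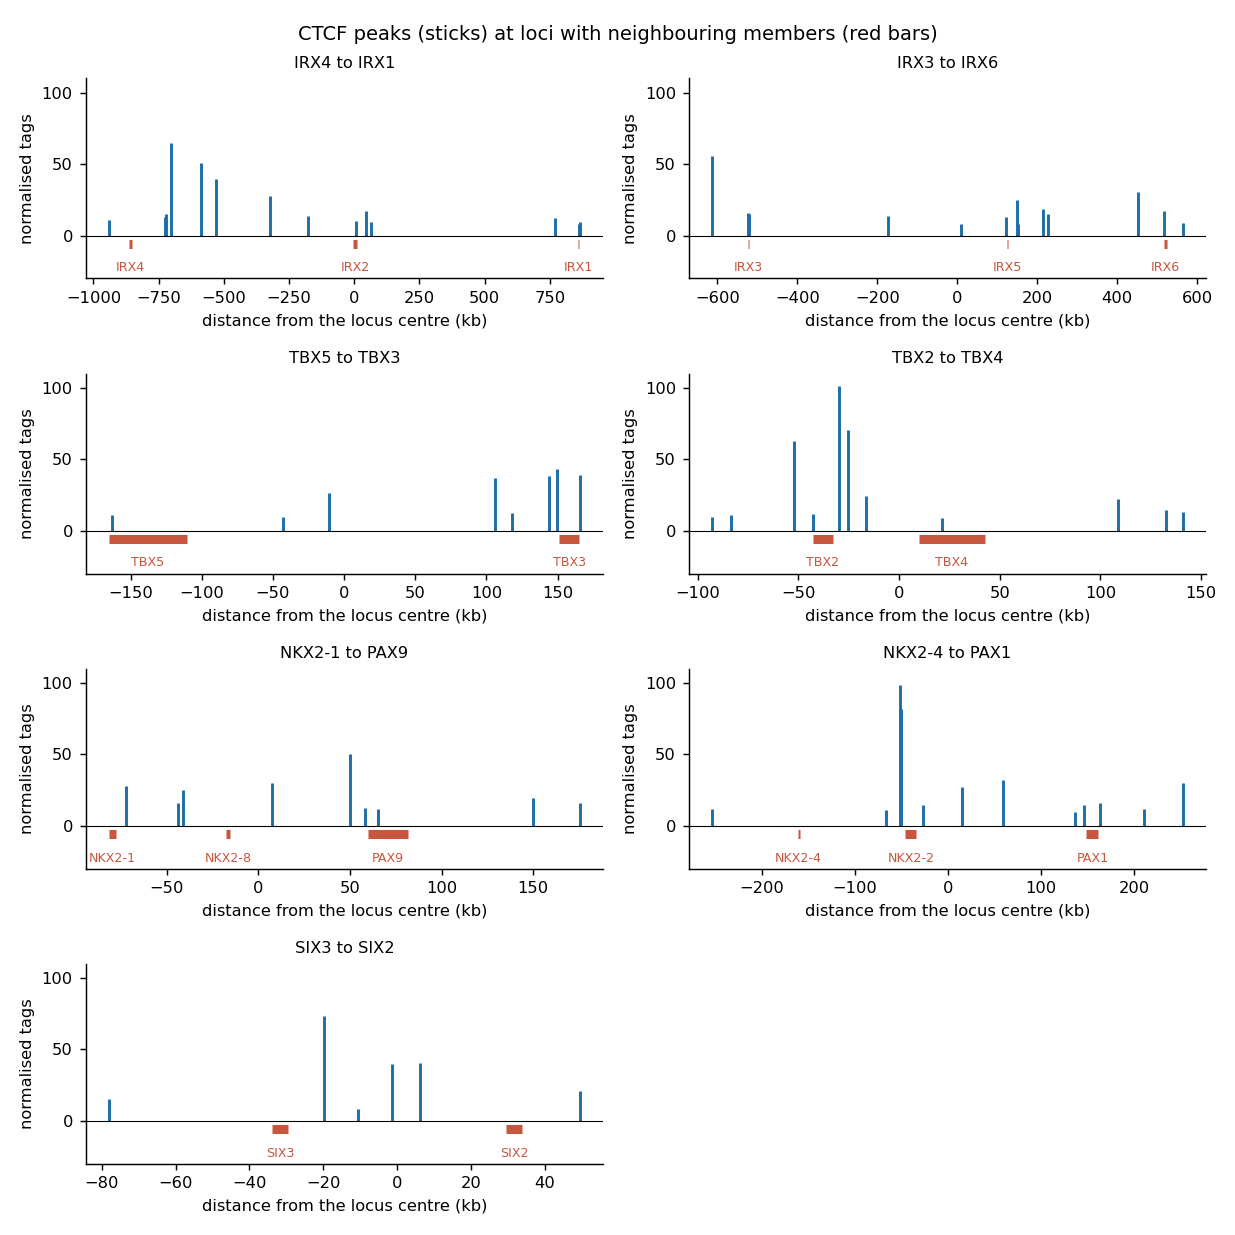
CTCF peaks at 7 loci with neighbouring members, as sticks of normalised tags (vertical axis) against distance from the locus centre (kb), with 100 kb beyond the outermost genes and the members as red bars. The tallest stick is the peak of 101.5 beside TBX2, before the peak of 98.4 beside NKX2-2.

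The same counts were made for other developmental regulators. Forkhead genes, a family of winged helix factors, had a peak within 1 kb in 9 of 42 (21.4%) and within 5 kb in 25 of 42 (59.5%), and their nearest outside peak lay at a median of 4.82 kb. FOXD2 led with 154.6 normalised tags (138 to 173), before FOXA3 with 74.7 (63.2 to 88.3) and FOXP4 with 59.3 (49.0 to 71.3). HOX genes, which sit in dense clusters, had 14 of 39 (35.9%) within 1 kb, 31 of 39 (79.5%) within 5 kb and a median of 3.44 kb. Against the 28.9% and 54.0% of all genes, HOX genes lay above at both distances. The 70 members and the forkhead genes both lay below at 1 kb, and the forkhead genes lay above at 5 kb. No test of these differences was made. The 4 EYA coactivators and the corepressor DACH1, partners of PAX and sine oculis proteins, had a peak within 1 kb in 1 of 5 (20.0%). It lay at EYA4, with 12.0 normalised tags (7.59 to 18.0). Within 5 kb it was 2 of 5 (40.0%). All 5 held a peak inside, and their median length was 294 kb. LIM homeodomain relatives and cofactors of LHX proteins had 2 of 13 within 1 kb (15.4%), LMO2 with 49.2 (40.0 to 60.5) and SSBP4 with 14.1 (9.26 to 20.4). Within 5 kb it was 8 of 13 (61.5%). Both of these small lists were thus also below all genes at 1 kb.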

How the data were processed

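The submitters' processing notes list hg38 as build and Bowtie2 and HOMER as tools, without versions. Per the file headers, HOMER's findPeaks was run in factor style on 1 library and no control is named. The same headers record that tags at 1 position counted as 1, that a peak needed 15 tags (false discovery rate 0.001), 4-fold enrichment over the 10 kb around it and a local p of 1e-04. The deposited tag signal is tags per peak scaled to 10000000 tags. The deposited focus ratio is a fraction, the score is the caller's own as deposited, and the deposited folds (over the local region, and clonal) are each a ratio. The deposited local p-value was not used.

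Tags per peak were recovered from the deposited signal by rounding and given exact Poisson 95% intervals. The normalised tags are not held to 1 tag per position, so the intervals can be too narrow. Genes came from a RefSeq table of GRCh38.p14 (the same chromosome sequences as hg38), with strand from the RefSeq promoter table (46 of 70 members). The table gives no exons, so positions are relative to gene ends. Members were taken by symbol. Members, lists and naming rules were chosen with earlier results of these data known, and the comparison by gene density and that without peaks shared with other gene ends were chosen after seeing the data. In each family up to 4 members with the most tags within 1 kb have full values, the others are named with distances or counted. Values of 2 members are counted but not reported here. Distances were tested on simulated peaks planted by 200 genes (80 of 80 within 1 kb found). Scripts ran in Python 3.11.15, with pandas 2.3.3 and numpy 2.4.6 for tables, scipy 1.17.1 for intervals and matplotlib 3.10.9 for plots.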

Additional observations from a re-analysis of the deposited data

How the results depend on the processing

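The count of 12 members with a peak within 1 kb was 6 with peaks at or above the median score, 7 with peaks at least 8-fold over the local region, 3 with the transcription start alone (of 46 members), 4 when the window was 500 bp and 23 when it was 2 kb. These settings also change the share of all genes (15.6%, 18.9%, 24.8%, 20.9% and 37.9%), and the members' share was below it under each of them. It was 14 by peak edges, 8 of 34 at the members' interquartile length and 10 without peaks that lie within 1 kb of another protein-coding gene end. The count of 37 within 5 kb was 19 at or above the median score (27.1% against 34.2% of all genes) and 25 at 8-fold (35.7% against 42.2%). With the start alone it was 17 of 46 (37.0% against 41.5%). The members' share was below that of all genes in each of these. It was 23 of 34 at the interquartile length, where the members' share was above that of genes of that length (67.6% against 57.1%). Without shared peaks the count within 5 kb was 35, above the share of all genes (50.0% against 45.8%). The median distance of 10286 bp to the nearest outside peak was 27082 bp at or above the median score and 16527 bp at 8-fold, against 18453 and 12775 bp for all genes. Of the 12 members with a peak within 1 kb, 6 had no peak there at or above the median score. Family counts are small, and 45 of 112 moved by over 1.5 times. Counts and not shares were compared, so some moved where fewer genes were counted and the share hardly changed. For SOX within 1 kb it was 2 of 16 (12.5%), and 1 of 9 (11.1%) with the start alone. No paired analysis was possible because 1 peak list of 1 sample was analysed and no test between groups was made. Depth limits weak peaks, and a gene without a called peak may have binding below the threshold.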
